A study of Mus musculus with 4 samples.

Results

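Caprin-1 precipitates were set against IgG precipitates in mouse 4T1 mammary carcinoma cells that carried the shRNA against CerS4, and every gene was read as the ratio of its level in the Caprin-1 library to its level in the IgG library. These were 2 of the 4 libraries of the study, and the 2 others were the same precipitates from cells with the control shRNA. The 10283 genes compared, out of 12967 symbols, reached 5 CPM (CPM gives a gene's share of all reads in its library) or more as the mean of the 4 libraries, and 2684 did not. Each side was 1 library, so no test was made, and the 95% intervals given below cover the counting of reads only.

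The groups were shCerS4 IgG, shCerS4 Caprin-1, shSCR IgG and shSCR Caprin-1, with 1 library in each. The line labelled shCerS4 stably expressed an shRNA against CerS4 and the line labelled SCR a control shRNA, and both grew in medium with puromycin. 4T1 is a cancer cell line from mammary epithelium, and the labels name no clone, animal or time. The study's stated question was how the binding of mRNA by a complex of PD-L1 and Caprin-1 behaves when lipid metabolism is altered. No library of total RNA without precipitation was used here, so each ratio compares the makeup of 2 precipitates and not the amount of RNA pulled down. Cers4 itself had no entry in the values used here, so the knockdown could not be checked.

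Caprin-1 is a cytoplasmic RNA-binding protein that forms a complex with G3BP1 and G3BP2, and this complex is known for its place in stress granules, the RNA and protein bodies that gather when translation initiation is blocked. Caprin-1 has been described to bind mRNAs of Myc and Ccnd2 and, in neurons, of synaptic proteins. CerS4 is a ceramide synthase, one of the enzymes that join a fatty acid to a sphingoid base. In RNA immunoprecipitation an antibody pulls a protein down with the RNA that it holds, and a non-specific IgG gives the background of RNA that sticks without it.

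The shCerS4 pair held an estimated 19.7 M reads in the IgG library and 24.7 M in the Caprin-1 library, and the shSCR pair 19.8 M and 27.0 M. Ribosomal RNA precursor (Rn45s) took 3074 and 2994 CPM of the shCerS4 pair and 6697 and 4287 CPM of the shSCR pair. Intervals reached a median of 0.13 to each side of a log2 ratio. Of the 7 epithelial markers all had values in both shCerS4 libraries, with summed levels of 4039 CPM in IgG and 5965 CPM in Caprin-1. Of 16 markers of immune, endothelial, fibroblast, muscle, blood and liver cells, 5 had an entry. Kdr was listed at 0 in both shCerS4 libraries, and Acta2 and Alb were under 1 CPM. Cd68 stood at 14.9 CPM in IgG and 14.6 CPM in Caprin-1, and Pdgfra at 39.4 and 19.2 CPM. The summed level of the 5 ran from 34.0 CPM in shCerS4 Caprin-1 to 87.5 CPM in shSCR IgG, and their part in the ratios was not tested.

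Most RNAs of the shCerS4 cells were recovered in similar shares by both precipitates, and the departures ran mainly toward IgG. The median log2 ratio was −0.11, the quartiles were −0.54 and 0.26, and 7061 genes (68.7%) were within 1.5-fold of equal. Past 2-fold means here a log2 ratio of at least 1 in size with an interval that excludes 0. By that rule 96 genes (0.934%) were higher and 825 genes (8.02%) were lower in the Caprin-1 precipitate. The balance of these counts rested on scaling to library totals, since scaling by a trimmed mean gave 223 genes higher and 557 lower, by the median of ratios 210 and 577, and by the upper quartile 227 and 551. Those scalings moved the median of all genes to 0.03, 0.02 and 0.03, so the shares of the calls that were higher went from 10.4% to 28.6%, 26.7% and 29.2%. Trimmed-mean scaling added 0.14 to every log2 ratio and ended 268 lower calls, all of them with ratios above −1.14.

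**Figure D1:**
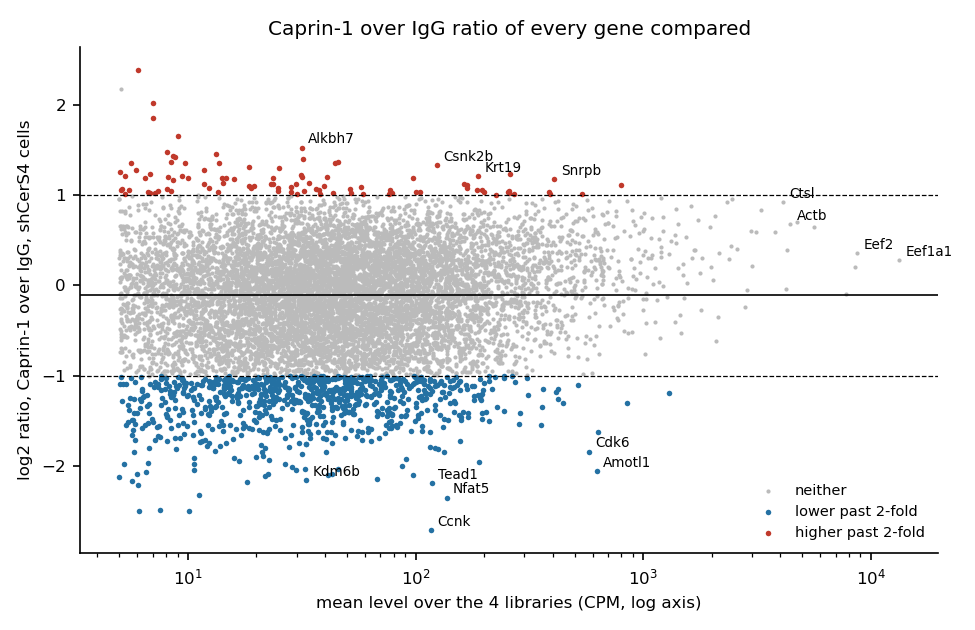
Each point is 1 of the 10283 genes compared, with the mean level over the 4 libraries (CPM, log axis) against the log2 ratio of Caprin-1 over IgG in shCerS4 cells. The dashed lines mark 2-fold and the solid line the median of −0.11, and 825 points below the lower line stand against 96 above the upper one.

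The 2 precipitates also differed in how far reads were concentrated in a few genes. In IgG the 100 most abundant genes held 17.4% of the shCerS4 library, and in Caprin-1 the 100 most abundant held 21.4%. The 10 most abundant genes of the Caprin-1 library were led by mRNAs of the translation machinery and the cytoskeleton, and 9 of the 10 had a ratio above 0. Eef1a1, the elongation factor that brings tRNA to the ribosome, stood at 13478 CPM in IgG and 16383 CPM in Caprin-1, a log2 ratio of 0.28. Eef2, the translocation factor, went from 9638 CPM in IgG to 12351 CPM in Caprin-1, with a ratio of 0.36. Pabpc1, the cytoplasmic poly(A)-binding protein, had 7742 CPM in IgG and 8938 CPM in Caprin-1. These are abundant mRNAs in any growing cell, and none of them neared the 2-fold line.

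Among the other abundant genes, the structural and lysosomal ones had the larger ratios. Vim, the intermediate filament protein vimentin, stood at 3184 CPM in IgG and 5193 CPM in Caprin-1, a log2 ratio of 0.71. Actb, encoding cytoplasmic actin, had 2871 and 4602 CPM, with a ratio of 0.68. Ctsl, a lysosomal cysteine protease, had the largest ratio of the 10, at 0.93 from 2358 CPM in IgG to 4479 CPM in Caprin-1. The chaperone Hsp90ab1 was the exception, with 7395 CPM in IgG, 6913 CPM in Caprin-1 and a ratio of −0.10. That sign turned under the 3 other scalings, which gave 0.039, 0.031 and 0.044 in the order above.

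The mRNAs of the Caprin-1 complex itself were not on the higher side. Caprin1 had 405 CPM in IgG and 310 CPM in Caprin-1, a log2 ratio of −0.39 (interval −0.43 to −0.34). G3bp1 was level at 306 and 308 CPM, with a ratio of 0.01. G3bp2 had 215 CPM in IgG and 166 CPM in Caprin-1, a ratio of −0.37. Fmr1, which encodes the fragile X RNA-binding protein described as a Caprin-1 partner, had 68.1 and 47.2 CPM and a ratio of −0.53, and its most abundant transcript alone gave 0.17. The 4 mRNAs thus ran from level to modestly lower, and no interval reached 2-fold.

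Of the mRNAs for which Caprin-1 is best known, Ccnd2 was past 2-fold, on the IgG side. Ccnd2, encoding the G1 regulator cyclin D2, had 267 CPM in the shCerS4 IgG library and 90.2 CPM in Caprin-1, 2.96-fold less (log2 ratio −1.57, interval −1.64 to −1.50). In shSCR cells its levels were 134 CPM in IgG and 37.7 CPM in Caprin-1, so both lines had less of it in Caprin-1. Myc, the growth-promoting transcription factor, had 387 CPM in IgG and 366 CPM in Caprin-1, a log2 ratio of −0.08 whose sign turned under the same 3 scalings, to 0.055, 0.046 and 0.060. Cd274, which encodes PD-L1, the checkpoint ligand named in the study's question, stood at 101 CPM in IgG and 127 CPM in Caprin-1, a ratio of 0.33 (0.25 to 0.42). In shSCR cells Cd274 had 324 and 377 CPM and a ratio of 0.22, a difference between the lines of 0.11 (0.02 to 0.21).

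A list of 17 mRNAs described as bound by Caprin-1 had 14 members compared. None was higher past 2-fold, against 0.934% of all genes, and 3 (21.4%) were lower, against 8.02% of all genes. The list's median of −0.23 lay 0.13 below the median of all genes. That distance turned to 0.00051 above it with a filter of 20 CPM and 0.043 above it with no filter. The median left after subtracting that of genes of like genomic length, a value explained below, was −0.32. The members had intervals wholly below 0 in 9 cases and wholly above 0 in 4. Actb at 0.68 was the highest, and Eef2, the most abundant member, had 0.36. The members lower past 2-fold were Ccnd2, Cdk6 and Map1b. Cdk6, the kinase partner of D-type cyclins, had 361 CPM in IgG and 101 CPM in Caprin-1, a log2 ratio of −1.84. Map1b, a microtubule-associated protein of neurons, had 71.2 CPM in IgG and 29.8 CPM in Caprin-1, a ratio of −1.26. Creb1, a cyclic AMP response factor, stood short of the line at −0.85.

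Among genes with an established symbol and a mean of at least 20 CPM, 53 were higher past 2-fold and 561 lower. Of the 15 highest, 14 are given here, which ran from 2.26-fold to 2.88-fold over IgG, with a median genomic span of 7.75 kb against 23.5 kb for all genes. Alkbh7, a mitochondrial dioxygenase of the AlkB family, led them with 18.6 CPM in shCerS4 IgG and 53.6 CPM in Caprin-1, a log2 ratio of 1.53 (1.36 to 1.70). It had 14.7 and 39.6 CPM in the shSCR pair, so both Caprin-1 libraries stood above both IgG libraries. Tfpt, a subunit of the INO80 chromatin remodeller, had 17.4 CPM in IgG and 46.0 CPM in Caprin-1, a ratio of 1.40.

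Other members of the 14 belonged to metabolism, signalling and DNA repair. Aldh3a1, an aldehyde dehydrogenase, had 8.13 CPM in IgG and 21.1 CPM in Caprin-1, a log2 ratio of 1.37. Sting1, the adaptor of cytosolic DNA sensing, had 20.6 and 52.9 CPM, a ratio of 1.36. Csnk2b, the regulatory subunit of casein kinase 2, had 68.8 CPM in IgG and 173 CPM in Caprin-1, a ratio of 1.33. Others were Yipf1, a Golgi membrane protein, at 1.30, Mvd, an enzyme of the mevalonate pathway, at 1.21, and Rdm1, a DNA repair protein, at 1.19.

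Besides Alkbh7, genes of mitochondrial proteins were Atp5d, Mrpl46 and Mpv17l2. Atp5d, the delta subunit of ATP synthase, had 171 CPM in shCerS4 IgG and 402 CPM in Caprin-1, a log2 ratio of 1.23. Mrpl46, a protein of the large mitochondrial ribosomal subunit, had 15.6 and 36.3 CPM, and Mpv17l2, which takes part in mitochondrial ribosome assembly, had 27.7 and 63.5 CPM. Smarcb1, the SWI/SNF core subunit, and Snrpb, a core protein of spliceosomal snRNPs, had ratios of 1.19 and 1.18. Krt19, a simple-epithelial keratin, had 127 CPM in IgG and 294 CPM in Caprin-1. In shSCR cells 12 of the 14 were past 2-fold in the same direction, and the 2 others were Sting1 at 0.99 and Rdm1 at 0.76. The abundant end of the higher genes, picked out after the values were seen, was Tmem176b, a membrane protein with 566 CPM in IgG and 1222 CPM in Caprin-1, and Ctsz, a lysosomal cathepsin with 384 and 778 CPM.

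The lowest ratios lay further from equal than the highest. The 15 lowest among genes of at least 20 CPM were between 4.03-fold and 6.56-fold lower than IgG, and their median span was 54.2 kb. Ccnk, encoding the cyclin of transcription elongation kinases, was the lowest of all genes compared, with 220 CPM in shCerS4 IgG and 33.6 CPM in Caprin-1, a log2 ratio of −2.71 (−2.82 to −2.61). Its shSCR levels were 173 and 40.4 CPM, so its IgG levels stood apart from its Caprin-1 levels in both lines. Nfat5, the transcription factor of osmotic stress, had 250 CPM in IgG and 48.9 CPM in Caprin-1, a ratio of −2.35. Tead1, the DNA-binding partner of the Hippo effectors, had 199 and 43.6 CPM, a ratio of −2.19, and Amotl1, an angiomotin that binds those effectors, had 956 and 230 CPM, a ratio of −2.05.

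Signalling genes, chromatin genes and a nuclear RNA completed the low end. Inhba, encoding the activin beta A chain, had 140 CPM in shCerS4 IgG and 31.5 CPM in Caprin-1, a log2 ratio of −2.15, and Braf, the RAF kinase, had 47.7 and 11.2 CPM, a ratio of −2.08. Kdm6b, a histone demethylase, had a ratio of −2.16, and the transcription factors Pou2f1 and Usf3 had −2.09 and −2.03. The telomere-binding homeobox protein Hmbox1 stood at −2.10, the autophagosome adaptor Fyco1 at −2.11 and the methyl-CpG-binding family member Mbd6 at −2.04. Glrp1 had −2.10 and the dynein light chain gene Dnal1 −2.01. Malat1, a nuclear non-coding RNA, had 45.8 CPM in IgG and 11.2 CPM in Caprin-1, a ratio of −2.03. All 15 were lower past 2-fold in shSCR cells too, with log2 ratios from −2.65 to −1.25.

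**Figure D2:**
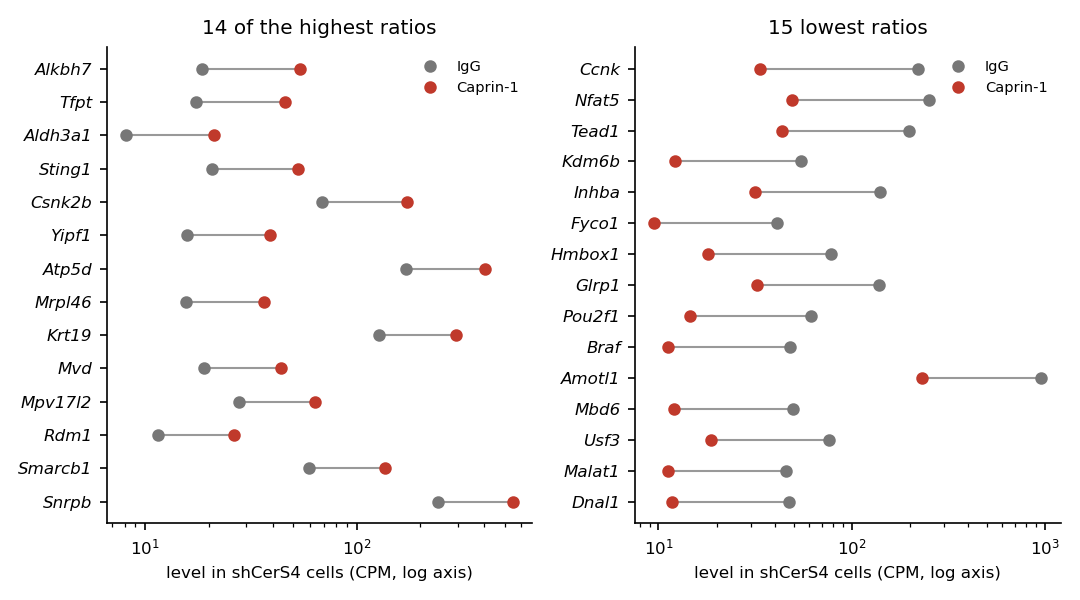
Levels of 14 of the genes with the highest and the 15 with the lowest ratio in shCerS4 cells (mean of at least 20 CPM), in the IgG library (grey) and the Caprin-1 library (red), on log axes in CPM with 1 library per point. The distances on the left are 2.26-fold to 2.88-fold and those on the right 4.03-fold to 6.56-fold.

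The 2-fold line cut through a continuous spread of values. The genes of at least 20 CPM just inside it on the higher side were Edf1, Taf6l, Cbr2, Pnkd and Pcna at log2 ratios of 1.00 to 1.01, and just outside stood Med27, Nubp2, Tmem199, Idh3g and Bloc1s1 at 0.99 to 0.98. On the lower side Fbxl19, Man2a2, Ndst1, Foxj2 and Hmga2 were inside and Samd4, Nkap, Mlec, Lpar2 and Ankrd28 outside, all within rounding of the line. Mlec, a sugar-binding protein of the endoplasmic reticulum, had 442 CPM in IgG and 221 CPM in Caprin-1, and Hmga2, a chromatin architectural protein, had 381 and 190 CPM. Genes on the 2 sides of the line at this point differed by less than their intervals.

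Genomic span, the length from the start to the end of a gene, went with the ratio across the whole table. The 10276 genes with a position were put into 5 equal bins by span. The median log2 ratio was 0.25 in the shortest bin, then 0.07, −0.08, −0.31 and −0.57 in the longest. The higher calls numbered 49, 26, 9, 8 and 3 from the shortest to the longest bin, and the lower calls 37, 69, 102, 190 and 427. Spearman's rho across genes was −0.48 in the shCerS4 pair and −0.54 in the shSCR pair, as a description of these libraries, since genes are not independent replicates. The level of a gene went with it far less, with rho of 0.10. Within each of 5 equal bins of level the shortest genes had a median between 0.13 and 0.31 and the longest between −0.64 and −0.54. Transcript and protein lengths were not used here.

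**Figure D3:**
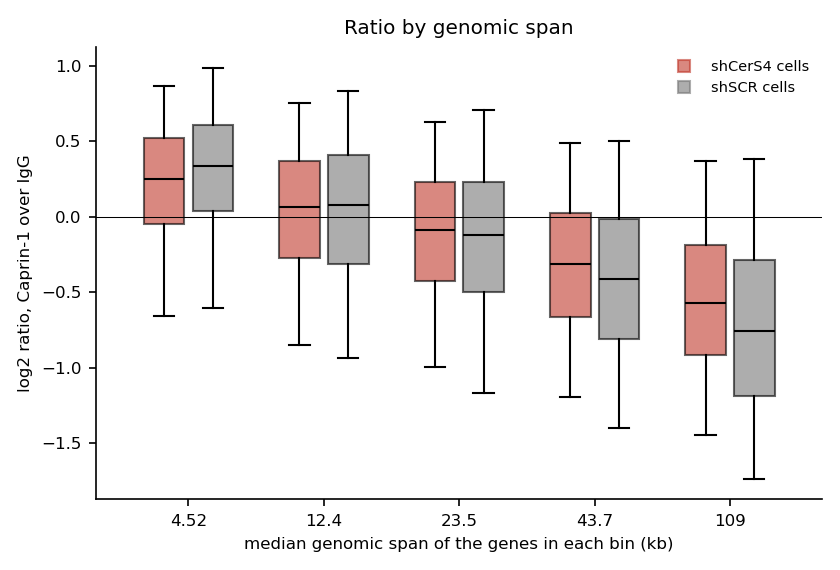
Log2 ratio of Caprin-1 over IgG in 5 equal bins of genomic span, labelled with the median span of each bin in kb, for shCerS4 cells (red) and shSCR cells (grey). Boxes run from the lower to the upper quartile, black lines are medians and whiskers reach the 5th and 95th percentiles, and the shCerS4 medians go down from 0.25 to −0.57.

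Because gene lists differ in span, each list is given by its median log2 ratio, by its distance from the all-gene median of −0.11, and where it matters by the median left after the median of genes of like span (20 bins) was subtracted. That last value was added after the data were seen. The counts of list members past 2-fold are to be read against 0.934% of all genes higher and 8.02% lower.

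**Figure D4:**
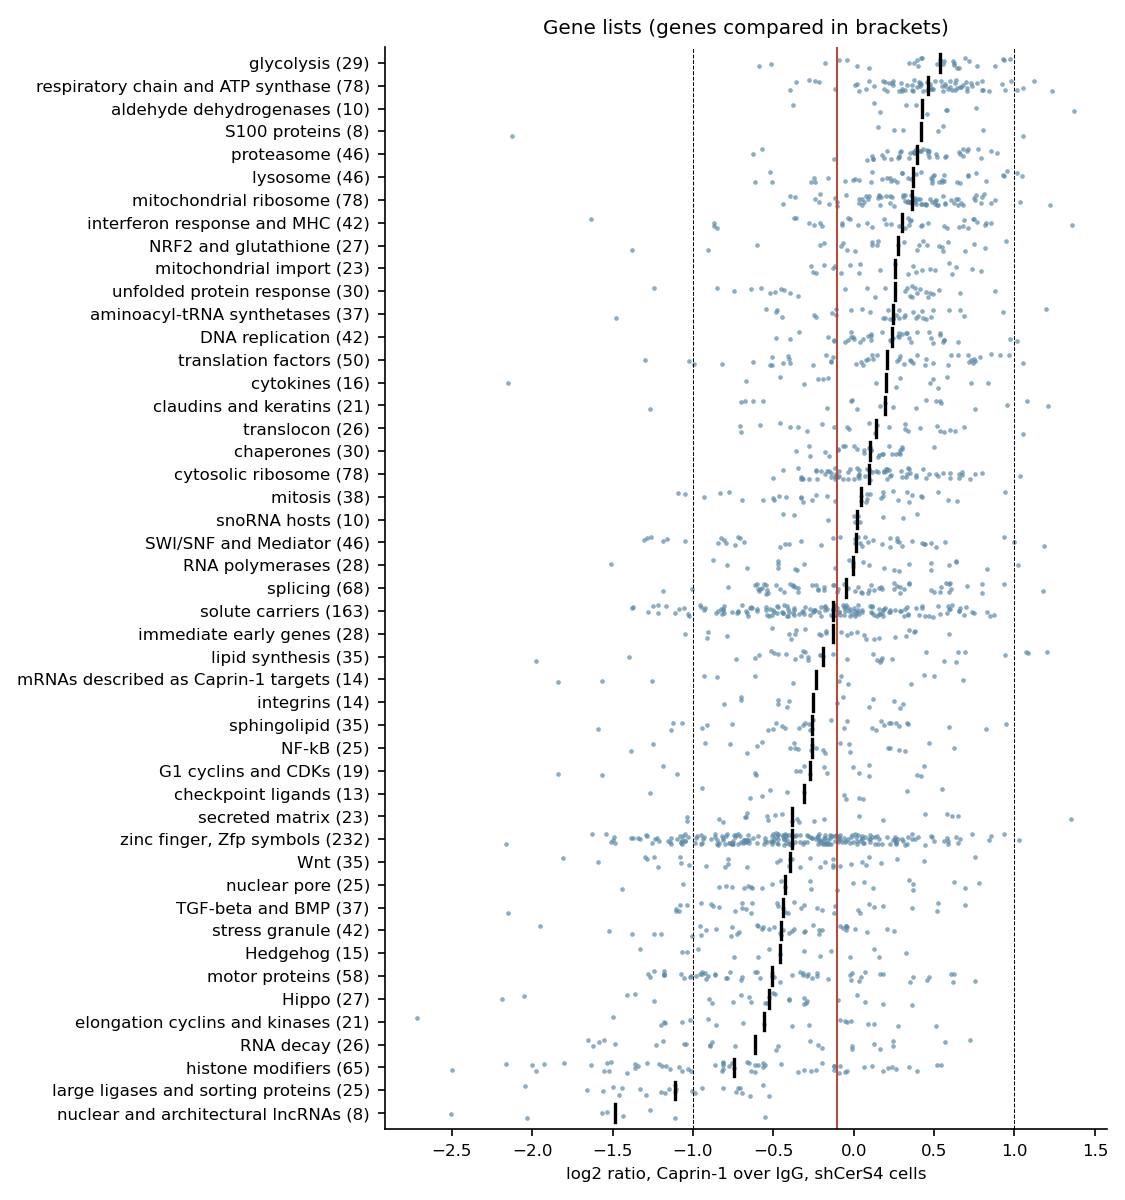
Log2 ratio of Caprin-1 over IgG in shCerS4 cells for each gene (points) of each list with at least 8 genes compared, with list medians as black bars, the median of all genes as a red line and 2-fold as dashed lines. The medians run from −1.48 for nuclear and architectural non-coding RNAs to 0.53 for glycolysis.

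Genes of energy metabolism lay toward Caprin-1. The respiratory chain and ATP synthase list had 78 genes compared, of which 72 had a ratio above 0, 4 were higher past 2-fold and none was lower. Its median of 0.46 was 0.57 above that of all genes, and 0.39 remained against genes of like span. Complexes I, II, III and IV had medians of 0.47, 0.47, 0.55 and 0.31, and ATP synthase 0.48. Atp5b, the catalytic beta subunit of ATP synthase, stood at 1695 CPM in IgG and 2651 CPM in Caprin-1, a ratio of 0.65. Ndufb2 and Ndufs7, subunits of complex I, were the other named members past the line, at 1.12 and 1.02, and Ndufs3 stood at 0.98. Trimmed-mean scaling raised the count from 4 to 7.

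Glycolysis had the highest list median, 0.53 over 29 genes, or 0.64 above all genes, although none of its members was past 2-fold. Ldha, lactate dehydrogenase A, had 570 CPM in shCerS4 IgG and 1118 CPM in Caprin-1, a log2 ratio of 0.97. Gapdh, the glyceraldehyde-phosphate dehydrogenase, had 239 and 455 CPM, a ratio of 0.93, and Eno1 and Aldoa, an enolase and an aldolase, had 0.93 and 0.88. These stood just under the line, and trimmed-mean scaling put 4 members past it. Pkm, pyruvate kinase, had 3311 and 4349 CPM and a ratio of 0.39. Against genes of like span the list median was still 0.53.

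The mitochondrial ribosome list had a median of 0.36 over 78 genes, with 67 above 0, 2 higher past 2-fold (Mrpl46 and Mrps34) and none lower, and 0.21 remained against genes of like span. Mrps34, a small-subunit protein, had 72.2 CPM in IgG and 148 CPM in Caprin-1, a log2 ratio of 1.04, and Mrpl13, the most abundant member, had 109 and 192 CPM and a ratio of 0.81. The import machinery had a median of 0.26 over 23 genes, none of them past 2-fold, and 0.064 against genes of like span. Timm17b, a channel subunit of the inner membrane, stood at 0.74 and Tomm20, a receptor of the outer membrane, at −0.23.

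The proteasome list was shifted as a whole with no member past 2-fold. Of 46 genes, 43 had a ratio above 0, and the median was 0.39, or 0.50 above all genes. The core particle had a median of 0.57, with all of its 17 members above 0, the regulatory cap 0.39 and the activators and assembly factors 0.35. Psmb2, a core subunit, had 92.8 CPM in shCerS4 IgG and 172 CPM in Caprin-1, a log2 ratio of 0.89. Psmb8, the immunoproteasome subunit, had 153 and 277 CPM, a ratio of 0.85, and Psmd2, a scaffold of the cap, had 358 and 409 CPM, a ratio of 0.19.

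Cytosolic ribosomal proteins spread on both sides of equal. Their 78 genes had a median of 0.10, with 49 above 0, 1 higher past 2-fold and none lower, and 24 had intervals wholly below 0. The list lay 0.20 above all genes but 0.15 below genes of like span, as ribosomal protein genes are short, with a median of 3.17 kb. Rpl24 was the member past the line, with 167 CPM in shCerS4 IgG and 342 CPM in Caprin-1, a log2 ratio of 1.04. Rpl3 had a ratio of 0.75, and Rpl4, the most abundant, had 0.60. In shSCR cells the list's median was 0.32, above its shCerS4 value. Reads of these genes can be shared with near-identical pseudogene copies, so single members are uncertain.

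Many ribosomal protein mRNAs begin with a pyrimidine tract at the 5′ end, a feature through which growth signals control their translation. RefSeq starts on GRCm38.p6 were matched by symbol for 8292 of the genes compared. A start was counted as such a tract where the strand with the RNA's sequence opened with C and then 4 bases of C or T. Of all matched genes 195 (2.35%) opened that way, and of 58 matched ribosomal protein genes 14 (24.1%). The 20 bases from the annotated start are shown for the 3 highest and the 3 lowest ratios among those 14, with the tract in capitals, because they show how alike the openings of members at both ends were.
Fau: CTTCCTCTTTCTTgactcca
Rpl15: CTTCCTTTCCTCTggcggca
Rplp2: CTTTCgccgccggacgccgc
Rps18: CTCTCTTCCacaggaggcct
Rpl35: CTCTTTCTCTCgaaccaggc
Rps15a: CTTCCCTCgccggtgagtga

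These starts lie at chr19:6057947-6057966 (plus strand, Fau), chr14:18270967-18270986 (minus, Rpl15), chr7:141447651-141447670 (plus, Rplp2), chr17:33955646-33955665 (minus, Rps18), chr2:39005112-39005131 (minus, Rpl35) and chr7:118116128-118116147 (minus, Rps15a), each the first transcribed bases of its gene. Fau, which encodes a fusion of a ubiquitin-like protein and a small-subunit protein, had 1513 CPM in shCerS4 IgG and 2499 CPM in Caprin-1, a log2 ratio of 0.72. Rpl15 and Rplp2 had ratios of 0.66 and 0.65. At the other end Rps15a had 190 and 150 CPM, a ratio of −0.34, Rpl35 −0.33 and Rps18 −0.32. Tracts of 13, 13 and 5 bases thus stood at the upper end and tracts of 8, 11 and 9 bases at the lower end. Ribosomal protein genes counted with a tract had a median of −0.01 and those not counted 0.13. The rule read the annotated first bases only, so a tract beginning a few bases away was missed. The genes not counted can therefore still carry a tract, and the split does not decide whether the tract goes with the ratio. Over all matched genes the medians were −0.10 with and −0.10 without a tract, and the tract was found in 2 of 74 higher genes (2.70%) and 9 of 666 lower genes (1.35%).

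Translation factors were mixed, as were the enzymes that charge tRNA. The 50 translation factors had a median of 0.20, or 0.046 against genes of like span, with 1 higher and 2 lower past 2-fold. Eif3k and Eif3a, subunits of the same initiation complex, stood at opposite ends. Eif3k had 124 CPM in shCerS4 IgG and 256 CPM in Caprin-1, a log2 ratio of 1.05, and Eif3a had 1346 and 547 CPM, a ratio of −1.30. Their spans were 10.5 kb and 29.6 kb, and against genes of like span their ratios were 0.95 and −1.12. The part of span in this contrast was not tested. Eif4g3, a scaffold of the cap-binding complex, was at −1.02, a call that ended under trimmed-mean scaling, and Eif2b2, a subunit of the exchange factor for eIF2, at 0.96.

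The 37 aminoacyl-tRNA synthetases had a median of 0.25, with 1 higher and 1 lower. Both called members were mitochondrial: Sars2 for serine had 4.57 CPM in IgG and 10.5 CPM in Caprin-1, a log2 ratio of 1.19, and Lars2 for leucine had 245 and 87.9 CPM, a ratio of −1.48. Sars, the cytosolic seryl enzyme and the most abundant member, had 1359 and 1758 CPM and a ratio of 0.37.

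Lysosomal genes lay toward Caprin-1 at a span close to that of all genes. The list had 46 genes with a median of 0.37, of which 37 were above 0, 2 were higher past 2-fold and none lower, and 0.42 remained against genes of like span. Ctsz, already given, had a log2 ratio of 1.02, and Atp6v0c, the ring subunit of the proton pump, had 162 CPM in IgG and 335 CPM in Caprin-1, a ratio of 1.04. Ctsb, cathepsin B, had 622 and 1191 CPM, a ratio of 0.94. Lgmn, the lysosomal protease legumain, was not on the list and was named after its values were seen, with 243 and 492 CPM and a ratio of 1.02. Trimmed-mean scaling raised the list's higher count from 2 to 5.

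Antigen presentation genes lay further toward Caprin-1 than interferon response genes. The antigen presentation genes had a median of 0.46 over 17 genes, and the interferon response genes 0.08 over 25. H2-D1, a classical MHC class I chain, had 1676 CPM in shCerS4 IgG and 2850 CPM in Caprin-1, a log2 ratio of 0.77, and its reads can be shared with other H2 genes. Irf2, an interferon regulatory factor, was lower at 119 and 38.2 CPM, a ratio of −1.63, while Sting1 was the higher member. The 16 cytokine genes compared had a median of 0.20, from Inhba to Spp1, but −0.071 against genes of like span. Spp1, osteopontin, had 2053 and 3665 CPM, a ratio of 0.84, and Cxcl16, a membrane-bound chemokine, had a ratio of 0.73 from 162 CPM in IgG.

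Checkpoint ligands and their regulators had a median of −0.31 over 13 genes, but 0.016 against genes of like span. Of the 13, 1 (7.69%) was lower past 2-fold, near the 8.02% of all genes. That member was Cmtm4, a membrane protein that stabilises PD-L1, with 302 CPM in shCerS4 IgG and 125 CPM in Caprin-1, a log2 ratio of −1.27. Cmtm6, its relative with the same role, had 169 and 108 CPM, a ratio of −0.64, and the ligand Cd276 had −0.57. These 3 had ratios of −1.82, −1.01 and −0.52 in shSCR cells.

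The largest shift toward IgG by share of a list with over 20 genes was that of the large ubiquitin ligases and vacuolar sorting proteins, encoded by some of the longest mRNAs of the cell. Of 25 genes compared, 15 (60.0%) were lower past 2-fold, none was higher and all 25 were below 0. The median was −1.11, with a median span of 158 kb, and −0.53 remained against genes of like span. Huwe1, a HECT ubiquitin ligase, had 67.2 CPM in shCerS4 IgG and 24.4 CPM in Caprin-1, a log2 ratio of −1.46. Vps13c, a lipid transfer protein, had 18.5 and 4.46 CPM, a ratio of −2.04, and the lysosomal trafficking regulator Lyst and the ligase Herc2 had −1.56 and −1.66. Nedd4, the most abundant, stood at −0.53. In shSCR cells 22 of the 25 were lower and the median was −1.59.

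Chromatin and transcription regulators differed by class. Of 65 histone-modifying enzymes compared, 24 were lower past 2-fold and none higher, with a median of −0.74, and −0.35 against genes of like span. By role, 13 of 27 methyltransferases, 6 of 18 demethylases and 5 of 20 acetyltransferases and deacetylases were lower, and the medians were −0.82, −0.77 and −0.07. Kmt2d, a histone lysine methyltransferase of enhancers, had 17.7 CPM in shCerS4 IgG and 3.12 CPM in Caprin-1, a log2 ratio of −2.50. Kmt2e had 156 and 39.0 CPM, a ratio of −2.00, and Ash1l and Setd7, other methyltransferases of the list, had −1.98 and −1.93. Ehmt2, the most abundant member, had 321 CPM in Caprin-1 and a ratio of −0.31.

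The elongation cyclins, kinases and their partners held Ccnk and had a median of −0.56 over 21 genes, with 7 lower. Ccnt1, the cyclin of an elongation kinase, had 77.8 CPM in IgG and 33.8 CPM in Caprin-1, a log2 ratio of −1.20, and Aff4, the scaffold of the super elongation complex, stood at −1.02, a call that ended under trimmed-mean scaling. Among 28 subunits of RNA polymerases the median was 0.00, with Polr2a, the largest subunit of polymerase II, lower at −1.51 and Polr1c, a small shared subunit of polymerases I and III, higher at 1.02. The 17 SWI/SNF genes had a median of −0.40, with 1 higher, Smarcb1, and 3 lower, among them Arid1a at −1.29 and Smarca2 at −1.19. The 29 Mediator genes had a median of 0.09, with none higher and 3 lower, among them Med13 at −1.26. Against genes of like span the SWI/SNF and Mediator medians were −0.10 and −0.00095.

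Genes with a Zfp symbol, mostly zinc finger transcription factors, numbered 232 compared, of which 32 were lower and 1 was higher. Their median was −0.38, or 0.28 below all genes, and −0.31 against genes of like span. Zfp469 had the lowest ratio, −2.16, on 112 reads in IgG and 31 in Caprin-1. Zfp462, Zfp609 and Zfp871 had ratios of −1.63, −1.54 and −1.50, and Zfp36l2, an mRNA-decay factor of another zinc finger class that shares the symbol, had −0.51. Trimmed-mean scaling lowered the count from 32 to 19.

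Of 26 decay factors, 9 were lower and none higher, with a median of −0.61 and −0.29 against genes of like span. Ago1 and Ago2, the Argonaute proteins of microRNA silencing, had 131 and 94.2 CPM in shCerS4 IgG and 43.7 and 32.0 CPM in Caprin-1. Their log2 ratios were −1.58 and −1.56, and their silencing partner Tnrc6b and the decapping enzyme Dcp2 had −1.65 and −1.62. Xrn2, the nuclear exonuclease and most abundant member, had 0.17.

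Stress granule proteins had a median of −0.45 over 42 genes, with 6 lower past 2-fold and none higher, and −0.18 against genes of like span. The 15 genes of the Caprin-1 and G3BP complex and its partners had a median of −0.39 with 3 lower, and the 27 other granule proteins −0.49 with 3 lower. Nufip2, a granule protein that interacts with Fmr1, had 118 CPM in shCerS4 IgG and 41.1 CPM in Caprin-1, a log2 ratio of −1.52. Prrc2b and Prrc2c, long disordered granule proteins, had −1.38 and −1.24, and Ddx6, the helicase of granules and processing bodies, −1.20. Taf15, an RNA-binding protein of the FET family, had the lowest ratio of the list, −1.95. Ncl and Pcbp2, abundant RNA-binding proteins named after their values were seen, had 1792 and 893 CPM in IgG and 785 and 290 CPM in Caprin-1, with ratios of −1.19 and −1.62.

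Splicing factors had a median of −0.05 over 68 genes, with 1 higher, Snrpb, and 2 lower, Hnrnpa3 and Srrm2. The snRNP proteins had a median of 0.08 and the hnRNP proteins −0.38. Srrm2, a large splicing scaffold, had 181 CPM in shCerS4 IgG and 79.6 CPM in Caprin-1, a log2 ratio of −1.18. Hnrnpa3 was 2.01-fold lower, a call that ended under trimmed-mean scaling. Hnrnpab, the most abundant member, had 780 and 1181 CPM, a ratio of 0.60, and Sf3b4, a branch-site factor, had 0.93.

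Non-coding RNAs that act in the nucleus or as architectural RNAs were the list with the lowest median, −1.48, and 7 of the 8 compared were lower past 2-fold. Their median span was 8.01 kb, though Neat1 spans 20.8 kb and Firre 72.2 kb, and against genes of like span the median was −1.57. Span is not the length of the RNA, so that value does not compare RNAs of like length. Neat1, the scaffold of paraspeckles, had 292 CPM in shCerS4 IgG and 108 CPM in Caprin-1, a log2 ratio of −1.43. Norad, a cytoplasmic RNA that binds Pumilio proteins, had 469 and 162 CPM, a ratio of −1.53, and H19 and Firre had −1.56 and −1.27. Genes annotated as lncRNA numbered 102 in all, and their median was −0.23, with 15 lower and 2 higher.

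The RNA parts of RNase MRP and RNase P, Rmrp and Rpph1, were among the lowest of all genes despite their short length. Rmrp is also a member of the preceding list and is counted among its lower calls. Rmrp had 196 reads in IgG and 43 in Caprin-1, a log2 ratio of −2.50 (−3.03 to −2.03), and Rpph1 had 417 and 104 reads, a ratio of −2.32. Both are made by RNA polymerase III, and the labels describe the sequenced RNA as polyadenylated. Hosts of snoRNAs were not as low, with a median of 0.02 over 10 genes, Zfas1 at −0.16, Snhg6 at −0.44 and Snhg12 at 0.40. These hosts had a median span of 2.59 kb, and against genes of like span their median was −0.25.

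Lists of developmental signalling pathways had medians below that of all genes, in part less so against genes of like span. In the TGF-beta and BMP list 6 of 37 genes were lower and none higher, with a median of −0.44, and −0.075 against genes of like span. Bmpr2, Tgfbr1 and Smad5 had log2 ratios of −1.11, −1.09 and −1.11, and with trimmed-mean scaling 1 of the 6 remained past the line. The Wnt list had a median of −0.40, and −0.23 against genes of like span. In it 9 of 35 genes were lower, among them Gsk3b, the kinase that marks beta-catenin for destruction, with 216 CPM in shCerS4 IgG and 61.6 CPM in Caprin-1, a ratio of −1.81. The receptors Fzd3 and Lrp6 had −1.59 and −1.30, and Ctnnb1, beta-catenin itself, had 1831 and 1516 CPM, a ratio of −0.27.

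The Hippo list had 5 of 27 genes lower and a median of −0.52, which was −0.22 against genes of like span, and its lowest members were Tead1 and Amotl1. Taok1 and Lats1, kinases of the cascade, had log2 ratios of −1.41 and −1.24. The Hedgehog list had 3 of 15 lower and a median of −0.46, which was −0.12 against genes of like span, with Gli3, a transcription factor of the pathway, at −1.33 and Hhip, its ligand-binding antagonist, at −1.04, and trimmed-mean scaling left 1 of the 3. The NF-kB list had 2 of 25 lower and a median of −0.26, or −0.060 against genes of like span.

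Lipid genes bear on the study's setting. The sphingolipid list had 35 genes compared, 4 of them lower and none higher, with a median of −0.26, which against genes of like span was 0.00. Cers6, a ceramide synthase of the same family as CerS4, had 58.6 CPM in shCerS4 IgG and 27.9 CPM in Caprin-1, a log2 ratio of −1.07. Sgms2, a sphingomyelin synthase, had 198 and 90.8 CPM, a ratio of −1.12, and Asah2, a neutral ceramidase, 32.7 and 10.9 CPM, a ratio of −1.59. B4galt6, which makes lactosylceramide, had 29.1 and 13.3 CPM and −1.13. In the shSCR pair it had 2 reads in IgG and 3 in Caprin-1, so it reached the 5 CPM mean only through the shCerS4 libraries. With trimmed-mean scaling 1 of the 4 lower genes remained past the line. Smpd2, a neutral sphingomyelinase, stood at 0.95 and Psap, the precursor of the saposins, at 0.34.

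Cholesterol and fatty acid synthesis had 35 genes, 3 higher and 2 lower, and a median of −0.19, but 0.10 against genes of like span. Mvd was the highest, and Idi1, the isomerase that follows it in the mevalonate pathway, the lowest, with 7.07 CPM in shCerS4 IgG and 1.79 CPM in Caprin-1, a log2 ratio of −1.97 (−2.51 to −1.49). Elovl6, a fatty acid elongase, had 67.4 and 25.5 CPM, a ratio of −1.40, and Scd2, a desaturase and the most abundant member, had 1237 and 988 CPM, a ratio of −0.33.

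Cell cycle lists had different medians, which lay closer together against genes of like span. Those values were 0.20 for replication, −0.037 for mitosis and −0.10 for the G1 list. DNA replication had a median of 0.24 over 42 genes, with Pcna, the sliding clamp, at 128 CPM in shCerS4 IgG and 258 CPM in Caprin-1, a log2 ratio of 1.01, and Mcm6, a helicase subunit, at 0.17. Mitosis had a median of 0.04 over 38 genes, with Mki67 and Cenpf lower at −1.09 and −1.05, calls that ended under trimmed-mean scaling, Top2a at −0.69 and Bub3, a spindle checkpoint protein, at 0.94. The G1 cyclins, kinases and regulators had a median of −0.27 over 19 genes, 4 of them lower. Besides Cdk6 and Ccnd2 these included E2f1, the S-phase transcription factor, at −1.10. Ccnd1, cyclin D1, had 1800 and 1174 CPM, a ratio of −0.62.

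Stress responses were close to the other genes or somewhat toward Caprin-1. The unfolded protein and integrated stress response list had a median of 0.26 over 30 genes, or 0.080 against genes of like span, with Phgdh, an enzyme of serine synthesis, at 0.88, Hspa5, the chaperone BiP, at 0.36 and the sensor kinase Ern1 lower at −1.24. The NRF2 and glutathione list had a median of 0.27 over 27 genes. Gstp1, a glutathione transferase, and Sod1, a superoxide dismutase, had ratios of 0.95 and 0.82, Fth1, the ferritin heavy chain, had 0.12, and Slc7a11, the cystine transporter, was lower at 178 and 68.4 CPM, a ratio of −1.38. Chaperones had a median of 0.10 over 30 genes with none past 2-fold. Immediate early genes had a median of −0.13 over 28 genes, with Zfp36l1, an mRNA-decay factor, lower at −1.05, a call that ended under trimmed-mean scaling.

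Membrane, matrix and cytoskeletal lists differed in both directions. The 58 motor proteins had a median of −0.51, or −0.17 against genes of like span, with 11 lower and none higher, and 7 of them lower under trimmed-mean scaling. Myh9 and Myh10, heavy chains of non-muscle myosin, had 559 and 157 CPM in shCerS4 IgG and 247 and 65.0 CPM in Caprin-1, with log2 ratios of −1.18 and −1.27. Their light chain partner Myl12a had 816 and 1241 CPM, a ratio of 0.60. The heavy chains span 81.6 kb and 125 kb and the light chain 8.74 kb. Against genes of like span the ratios of Myh9, Myh10 and Myl12a were −0.68, −0.70 and 0.52. The part of span in this contrast was not tested.

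Claudins and keratins had a median of 0.20 over 21 genes, with 2 higher and 1 lower. Cldn3, a tight junction protein, had 204 CPM in shCerS4 IgG and 431 CPM in Caprin-1, a log2 ratio of 1.08, and Krt18 had 1228 and 2374 CPM, a ratio of 0.95. Dsp, the long desmosomal protein desmoplakin, was lower with 95.2 and 39.5 CPM, a ratio of −1.27. The 14 integrins had a median of −0.25, but 0.15 against genes of like span, with none past 2-fold. Among them were Itga6 at −0.81 and Itga3 at −0.40. Secreted matrix genes had a median of −0.38 over 23 genes, but −0.019 against genes of like span, and their 2 lower calls ended under trimmed-mean scaling. Fn1, fibronectin, the most abundant of these matrix genes, was not past 2-fold, at 1808 and 1250 CPM, a ratio of −0.53. Fbln1, a fibulin, was their higher member at 1.35, on levels of 1.22 and 3.16 CPM.

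Transport and envelope lists completed the picture. The 163 solute carriers had a median of −0.13, close to all genes, with 12 lower and none higher, and 7 lower under trimmed-mean scaling. The translocon list had a median of 0.14 over 26 genes, with Dad1, a subunit of the oligosaccharyltransferase, higher at 1.05 and Stt3a, the catalytic subunit of the same enzyme, at 0.32. Nuclear pore genes had a median of −0.43 over 25 genes, but −0.0077 against genes of like span, with Pom121 and Ranbp2 lower at −1.44 and −1.06 and Nup62 at 0.06. Among 8 S100 genes S100a11 was higher at 1.05, S100a6 stood at 0.55, and S100b was lower at −2.13 on 2.90 CPM in IgG and 0.649 CPM in Caprin-1. The 10 aldehyde dehydrogenases had a median of 0.42, and Aldh3a1 was their 1 member past the line.

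Ratios of transcripts of 1 gene could differ more than those of genes. There were 1932 genes with at least 2 transcripts of 10 CPM or more over the shCerS4 pair, and the median gap between their highest and lowest transcript was 0.60 on the log2 scale. A gap of at least 1 was found in 519 genes (26.9%), and in 23 genes (1.19%) 1 transcript was higher past 2-fold while another was lower. The largest gap was in Zfp346, where 1 transcript had 21.2 CPM in IgG and 1.08 CPM in Caprin-1, a log2 ratio of −4.27, and another had 18.4 and 20.6 CPM, a ratio of 0.17. In shSCR cells the first of these had 2.21 and 10.2 CPM, the opposite direction.

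Gucd1, Cdc27, Usp1 and Znhit6 had the next gaps, of 4.01, 3.90, 3.74 and 3.73. For Gucd1 1 transcript had 20.9 CPM in shCerS4 IgG and 2.69 CPM in Caprin-1, and the other 21.2 and 44.1 CPM, while the gene's ratio was 0.15. For Cdc27, a subunit of the anaphase-promoting complex, the transcripts ran from −2.52 to 1.38 around a gene ratio of −0.76. Reads had been shared among transcripts before deposit and the file gives no transcript names, so these gaps can hold errors of that sharing as well as real isoforms, which cannot be told apart here. Without the 23 genes, an alternative added after the data were seen, 96 genes were higher and 824 lower past 2-fold.

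The shSCR pair, made of the other 2 libraries, gave similar ratios with a wider spread. The interquartile range of the log2 ratio was 0.80 in shCerS4 cells and 0.95 in shSCR cells, and Spearman's rho between the pairs across genes was 0.88. The shSCR calls were 174 genes higher (1.69%) and 1337 lower (13%). Of these, 52 were higher in both pairs, which is 54.2% of the shCerS4 calls and 29.9% of the shSCR calls. Another 700 were lower in both, which is 84.8% and 52.4%.

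Genes past the line in the shCerS4 pair and not in the shSCR pair mostly had the same sign in both. Of the 44 genes higher in shCerS4 and not in shSCR, 41 had a ratio above 0 in shSCR cells too, 24 had an interval of the difference above 0 and 5 a difference past 2-fold. Of the 125 genes lower in shCerS4 and not in shSCR, 122 were below 0 in shSCR cells, 80 had an interval below 0 and 9 a difference past 2-fold. Over all genes the difference of the log2 ratios, shCerS4 minus shSCR, was past 2-fold upward in 65 genes (0.632%) and downward in 36 (0.35%). The interval of a difference was a median of 0.19 to each side, and variation between cultures or precipitations was not measured.

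Of the upward differences, 7 genes with an established symbol had a mean of at least 20 CPM. Ptgds, a prostaglandin synthase, had 15.8 CPM in IgG and 14.0 CPM in Caprin-1 in shCerS4 cells, against 79.0 and 8.73 CPM in shSCR cells. Its log2 ratios were −0.17 and −3.17, a difference with an interval of 2.70 to 3.31, and the library that stood apart was shSCR IgG. Cdsn, a protein of cornified epithelium, had 49.3 and 58.4 CPM in shCerS4 cells and 3.63 and 1.74 CPM in shSCR cells, and its ratios of 0.24 and −1.06 had opposite signs.

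The others were long genes that were low in both pairs and lower in shSCR. Birc6, a large inhibitor of apoptosis, had ratios of −0.71 in shCerS4 and −2.11 in shSCR cells, a difference of 1.40. Nbea, Vps13b and Pkd1 had differences of 1.14, 1.10 and 1.02, and Col4a5, a collagen of basement membranes, 1.13. Col4a5 had 75.3 CPM in shCerS4 IgG and 51.7 CPM in Caprin-1, against 87.8 and 27.6 CPM in shSCR cells, so its 2 IgG libraries were closer together than its 2 Caprin-1 libraries.

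Downward differences with an established symbol and a mean of at least 20 CPM were Hmgn5, Taf15 and Hirip3, all of them proteins that bind chromatin or RNA. Taf15 had 363 CPM in IgG and 93.9 CPM in Caprin-1 in shCerS4 cells, and 185 and 117 CPM in shSCR cells. Its log2 ratios were −1.95 and −0.67, a difference of −1.29 (−1.38 to −1.19), and the IgG library of shCerS4 cells stood highest. Hmgn5, a nucleosome-binding protein, had 59.0 and 20.4 CPM against 35.0 and 32.4 CPM, a difference of −1.42. Hirip3, a partner of the histone chaperone HIRA, had 46.2 and 17.5 CPM against 78.6 and 61.0 CPM, a difference of −1.04.

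**Figure D5:**
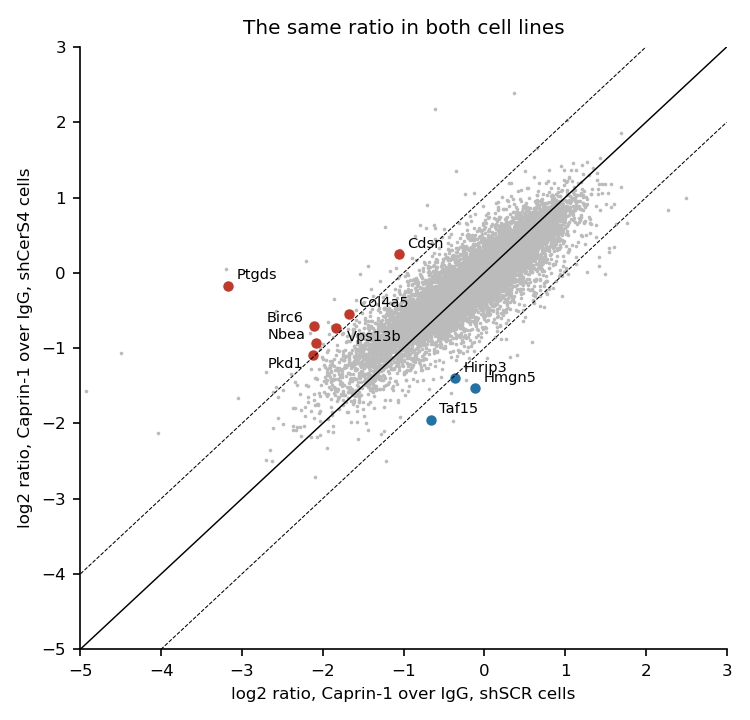
Log2 ratio of Caprin-1 over IgG in shSCR cells against the same ratio in shCerS4 cells for each of the 10283 genes, with the line of equal ratios and dashed lines at a 2-fold difference. Named points are the genes of at least 20 CPM with an established symbol past that difference, 7 upward (red) and 3 downward (blue).

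By list, matrix, integrin and large ligase genes differed most between the pairs. The integrins had a median of −0.25 in shCerS4 and −0.78 in shSCR cells, where 6 of 14 were lower past 2-fold. Itgav, the alpha V chain, had 259 CPM in IgG and 187 CPM in Caprin-1 in shCerS4 cells against 230 and 92.8 CPM in shSCR cells, a difference of log2 ratios of 0.84. Itga2, a collagen receptor chain, had a difference of 0.88. The matrix genes had medians of −0.38 and −0.87, with Col4a1 at −0.81 in shCerS4 and −1.17 in shSCR cells. Median differences over the members were 0.40 for integrins, 0.37 for matrix and 0.51 for the large ligases, against 0.04 over all genes. The respiratory chain and ATP synthase genes had −0.16 and the cytosolic ribosomal proteins −0.19. Span bins differed too. The longest bin and the next had medians of −0.57 and −0.31 in shCerS4 and −0.76 and −0.41 in shSCR cells. The shortest bin went the other way, with 0.25 and 0.34. Median spans were 55.2 kb for integrins, 54.4 kb for matrix and 158 kb for the large ligases. They were 7.39 kb for the respiratory list and 3.17 kb for the ribosomal proteins. The part that span had in these list differences was not tested, nor was that of depth and the Rn45s level, which also differed between the pairs.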

How the data were processed

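RNA from 4 precipitates of 4T1 cells was sequenced, 1 library per group. Polyadenylated RNA went into libraries through a SMARTER kit, per the labels' protocols. STAR in Partek aligned the reads to mm10, per the submitters' processing notes, which give no versions. The authors deposited CPM values per transcript (24393 rows, each with a gene symbol) under a name that calls them raw counts. Each deposited CPM column held an added 0.0001 per row, subtracted here. The spacing of low values gave the CPM that 1 read stands for. Within 0.05 reads, 79.8% to 81.2% of gene values and 28.9% to 31.4% of transcript values under 40 CPM were whole, so no count model was fitted across libraries. The intervals described below treat these estimated reads as counts.

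Rows were summed per symbol and 0.5 reads added before the log2 ratio of library shares was taken. Intervals are exact binomial (Clopper-Pearson, 95%) on estimated reads, which carry no molecular barcodes. A total of 3 reads is 0.152 CPM in shCerS4 IgG and 0.122 CPM in shCerS4 Caprin-1. The interval of a difference combined those of the 2 ratios. Of the symbols 12953 matched RefSeq on GRCm38 by name and 2 by synonym. Where copies of a gene are near identical, and for antisense genes, since strand was not given in the sources used here, reads cannot be assigned with certainty.

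The genes, the 49 lists and the rules were chosen with earlier results of these data known. Named genes were a fixed set of 10, the 15 highest and 15 lowest ratios past 2-fold at 20 CPM or more, the 10 most abundant, up to 8 each way for the difference, the most abundant and up to 5 most extreme genes of each list, 5 on each side of each line and 5 with the largest transcript gap; the text gives part of these, and some are left out and not reported here. Alternatives were 3 other scalings (the trimmed mean left out 30% of log ratios and 5% of levels on each side), filters of 1 and 20 CPM, 5 CPM over the shCerS4 pair and none, 5 added reads, no interval, and the most abundant transcript, and, added later, leaving out genes whose transcripts disagreed and subtracting the median of genes of like span. Calculations used Python 3.11.15, numpy 2.4.6, pandas 2.3.3 and scipy 1.17.1 and were tested on simulated data. Planned bins of protein length were not made, because protein sequences were not used here, and genomic span stood in for them.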

Additional observations from a re-analysis of the deposited data

Results flagged for a closer look

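The ratio of Cdsn, which encodes corneodesmosin, had opposite signs in the cell lines, 0.24 in shCerS4 and −1.06 in shSCR cells, a difference of 1.30 in the log2 ratio of Caprin-1 over IgG. Each sign came from 1 pair of libraries, the shSCR levels were 3.63 and 1.74 CPM, and the difference was not tested.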

How the results depend on the processing

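The count of genes higher past 2-fold (96) became 223 by trimmed mean, 210 by median of ratios and 227 by upper quartile, 187, 53 and 356 with filters of 1 CPM, 20 CPM and none, and 211 with the most abundant transcript. The count of lower genes (825) became 1359 with no filter. Upward differences between the lines (65) became 224, 8, 449 and 328, and downward ones (36) 172, 3, 317 and 240, with filters of 1 CPM, 20 CPM and none and with the most abundant transcript. The other 26 of these counts stayed within 1.5 times. Relative to all genes, the described Caprin-1 targets turned to 0.00051 with 20 CPM and 0.043 with no filter, and immediate early genes to 0.028 with 20 CPM. Against genes of like span, medians turned to 0.016 for checkpoint genes, −0.15 for cytosolic ribosome, −0.071 for cytokines, 0.15 for integrins, 0.10 for lipid synthesis, −0.037 for mitosis, −0.036 for RNA polymerases, −0.25 for snoRNA hosts, 0.00041 for sphingolipid genes, −0.17 for splicing and −0.053 for SWI/SNF and Mediator. With the most abundant transcript Fmr1 turned to 0.17 and Zfp346 to 0.17. Hsp90ab1 turned to 0.039, 0.031 and 0.044 and Myc to 0.055, 0.046 and 0.060 under the 3 scalings. Looser filters admit genes of few reads, and scalings move all ratios alike; otherwise the cause was not tested. No paired analysis was possible because each group held 1 library, and no library could be left out for the same reason. Counting error alone is covered by the intervals, and depth limits the genes near 5 CPM most.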
